A study of Mus musculus with 6 samples.

Results

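The insulin-like growth factor (IGF) binding proteins are 7 secreted proteins encoded by the genes Igfbp1 to Igfbp7, and they were taken here by gene symbol, as 7 of the 17975 genes in the table. All 7 were measured, and all 7 passed the filter on low counts, among 13805 genes tested. RNA was sequenced from whole liver of 3 WT and 3 Hom mice. Hom mice carried the NEK7 hepatocyte knock-out in homozygous form (NEK7 fl/fl-Alb-Cre+), from a cross of NEK7 fl/fl mice (strain B6/JNju-Nek7em1Cflox/Nju) to Alb-Cre mice, in which the albumin promoter drives Cre in hepatocytes, so that the other liver cells keep the gene. The WT mice are described by that word alone, and whether they carried the floxed alleles or Cre was not given in the sources used here. The study states for its knock-out work as a whole that controls were matched by age and sex and that males and females were both included. The age and sex of each sequenced animal were not used here. No treatment is named for these animals.

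IGF-1 and IGF-2 circulate almost wholly bound to these proteins, which prolong their life in blood and set how much can reach the IGF-1 receptor. The liver is the main source of circulating IGF-1 and of the acid-labile subunit, with which IGF-1 and IGFBP-3 form a ternary complex. Igfbp1, Igfbp2 and Igfbp4 are known as hepatocyte genes, and insulin represses Igfbp1 through FoxO1. Igfbp3 is made in liver mainly by cells other than hepatocytes, and Igfbp5, Igfbp6 and Igfbp7 are best known from stellate cells, fibroblasts, mesothelium and endothelium. IGFBP-7 binds IGFs weakly and is often called an IGFBP-related protein.

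The genes form neighbouring pairs in the mouse genome. In GRCm38 (GENCODE M21), Igfbp1 lay at chr11:7197782-7202546 on the plus strand, and Igfbp3 followed on the minus strand from 7206086 to 7213923, 3539 bp away. Igfbp2 lay at chr1:72824503-72852474 on the plus strand, and Igfbp5 on the minus strand from 72857932 to 72874884, 5457 bp away. Igfbp4 (chromosome 11, 99041244 to 99054392, plus strand), Igfbp6 (chromosome 15, 102144362 to 102149511, plus strand) and Igfbp7 (chromosome 5, 77349240 to 77408041, minus strand) stood apart from the pairs. The submitters' processing notes name mm9, so these positions come from the annotation and not from the deposited table.

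The 250 bases before the RefSeq start site (GRCm38.p6, read 5′ to 3′ on the gene's strand) are shown for 5 of the 7 genes. These are Igfbp2, which fell, Igfbp7, which rose, Igfbp1, whose Hom livers spread 4.54-fold, and Igfbp5 and Igfbp6, which were high in a single Hom liver. Igfbp3, which also fell, and Igfbp4 are described below without their sequence. Capitals mark the letters of any of 8 short motifs searched on both strands, and none of the matches overlapped.
Igfbp2 (chr1:72824230-72824479, plus strand): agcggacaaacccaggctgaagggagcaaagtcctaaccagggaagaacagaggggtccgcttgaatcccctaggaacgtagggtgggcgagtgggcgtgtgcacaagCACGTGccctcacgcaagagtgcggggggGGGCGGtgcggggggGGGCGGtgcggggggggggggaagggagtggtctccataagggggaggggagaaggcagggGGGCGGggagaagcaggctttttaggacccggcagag
Igfbp7 (chr5:77408046-77408295, minus strand): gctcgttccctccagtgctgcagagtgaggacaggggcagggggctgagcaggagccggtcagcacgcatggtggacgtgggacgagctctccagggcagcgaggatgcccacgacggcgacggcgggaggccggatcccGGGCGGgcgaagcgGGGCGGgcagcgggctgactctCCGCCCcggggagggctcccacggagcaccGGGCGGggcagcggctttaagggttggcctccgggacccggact
Igfbp1 (chr11:7197537-7197786, plus strand): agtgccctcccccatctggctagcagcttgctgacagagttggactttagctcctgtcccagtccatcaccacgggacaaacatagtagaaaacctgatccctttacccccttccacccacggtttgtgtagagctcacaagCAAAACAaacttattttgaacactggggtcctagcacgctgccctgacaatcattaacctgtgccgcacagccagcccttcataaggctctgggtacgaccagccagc
Igfbp5 (chr1:72874866-72875115, minus strand): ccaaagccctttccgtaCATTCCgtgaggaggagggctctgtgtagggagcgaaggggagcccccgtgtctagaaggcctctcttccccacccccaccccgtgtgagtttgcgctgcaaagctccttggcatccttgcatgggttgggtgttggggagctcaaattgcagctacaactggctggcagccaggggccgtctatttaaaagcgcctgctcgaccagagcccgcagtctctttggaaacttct
Igfbp6 (chr15:102143936-102144185, plus strand): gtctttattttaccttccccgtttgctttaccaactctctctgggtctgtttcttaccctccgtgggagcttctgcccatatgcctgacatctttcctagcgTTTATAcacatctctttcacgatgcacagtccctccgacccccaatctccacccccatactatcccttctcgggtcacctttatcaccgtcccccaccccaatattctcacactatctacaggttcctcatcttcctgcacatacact
All 7 genes were matched by symbol in the RefSeq promoter table. The Igfbp1 window held CAAAACA, the core of the insulin response element that FoxO factors read, 108 bases before the start, and 5.56% of 32851 promoter windows of the same length hold these letters. GGGCGG, the GC box of Sp1-like factors, occurred 4 times in the Igfbp7 window and 3 times in the Igfbp2 window, and 32.7% of windows hold at least one. The Igfbp2 window also held the E-box CACGTG (6.02% of windows), the Igfbp5 window GGAATG, the TEAD core (12.6%), and the Igfbp6 window TATAAA (12.4%), 148 bases before its start. The windows of Igfbp5 and Igfbp6 shared none of the 8 motifs. A further Igfbp2 start in RefSeq had TGANTCA, the AP-1 site (6.75%), 39 bases before it, Igfbp4 had TATAAA 28 bases before its start, and Igfbp3 had no match. TGTTTAC, the FoxO core (3.17%), and TTGCNNAA, a C/EBP site (9.56%), were found in none of the windows of the 7 genes. CpG dinucleotides numbered 26 in the Igfbp7 window and 32 in that of Igfbp3, against 5 in that of Igfbp1 and 7 in that of Igfbp6 (median of all windows 6).

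The libraries were of nearly equal depth, with 19349356 to 19730154 estimated reads on genes, and TMM factors, which correct for library composition, ran from 0.81 to 0.92 in WT and from 1.09 to 1.23 in Hom livers. Nek7 itself had 1036 to 1127 counts in WT and 310 to 439 in Hom livers, which is −1.99 on the log2 scale with a standard error (SE) of 0.10 (edgeR adjusted p = 1.59e-04). Here and throughout, fold changes are Hom minus WT and come from the quasi-likelihood method of edgeR, with p adjusted by Benjamini and Hochberg over all tested genes. Each liver came from a different mouse, so the p-values measure the spread between mice. Hom replicate 1 stood apart in Y-linked genes: it held 0 counts of Ddx3y and Kdm5d, of which every other liver held 243 or more. A further Y-linked gene, Uty, had 149 counts in it and at least 464 in every other liver. Sex was not read from these counts, and the part of sex in the results was not tested. Values without Hom replicate 1 are therefore given beside the fold changes of the 7 genes and their main shares. Over all genes, WT replicate 1 differed most from the other livers of its group. Values without it are given for Igfbp1 and Igfbp3, and 2 members were lower and 1 higher without it.

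Of the 7 binding protein genes, Igfbp2 and Igfbp3 were lower and Igfbp7 was higher in Hom livers, while Igfbp1, Igfbp4, Igfbp5 and Igfbp6 did not pass the test. Of all tested genes, 20.1% were lower and 21.5% higher at the same threshold, an adjusted p under 0.05. The members' median log2 fold change was −0.59, and that of all tested genes was −0.0018. The members' median rested on single livers, being −1.23 without Hom replicate 1, −0.16 without Hom replicate 2 and −0.21 without Hom replicate 3. With an absolute fold change of at least 1 on the log2 scale required as well, the same 3 of 7 genes passed, against 17.4% of all tested genes. The groups did not overlap for these same 3 genes, 2 lower and 1 higher, against 27% of all tested genes lower and 28.7% higher without overlap (55.6% in all, and 41.7% past the adjusted p in either direction). Levels are given as CPM, counts scaled by library size and TMM factor, for comparing livers, and as TPM, which divides by gene length, for comparing genes. In bulk tissue, fewer cells of a type and less RNA per cell cannot be told apart.

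**Figure D1:**
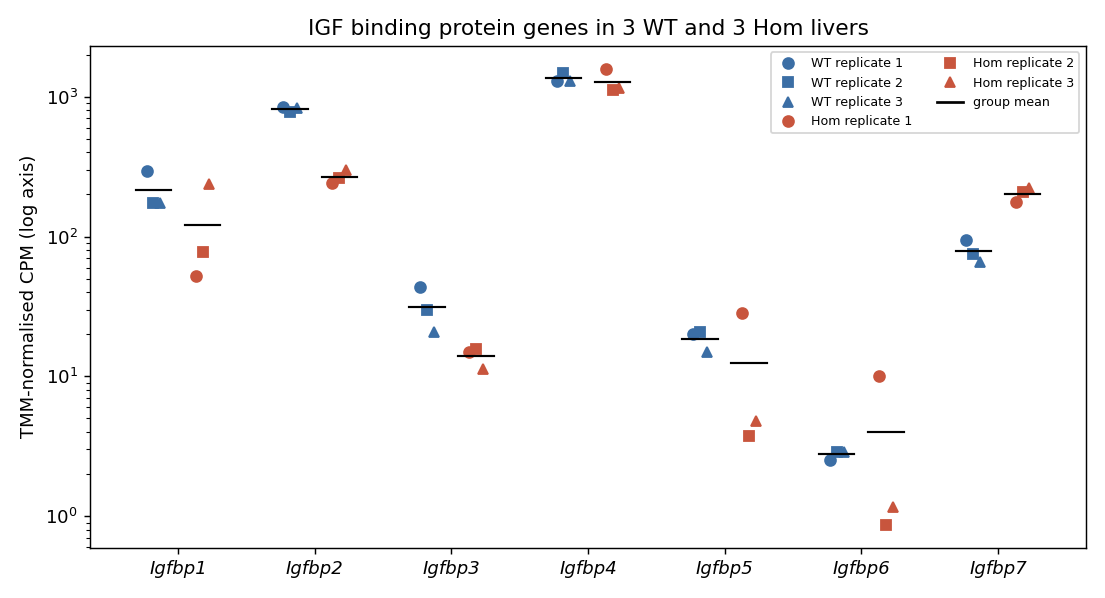
TMM-normalised CPM (log axis) of the 7 genes in each of 3 WT (blue) and 3 Hom (red) livers, with marker shapes for replicates and black lines for group means. Igfbp2 and Igfbp3 lay lower in all Hom livers and Igfbp7 higher, while a single Hom liver set the Hom mean of Igfbp5 and Igfbp6.

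Igfbp2, an IGF carrier abundant in fetal serum, was at 838, 781 and 829 CPM in WT replicates 1, 2 and 3 and at 241, 262 and 298 CPM in Hom replicates 1, 2 and 3. Every Hom liver was far under every WT liver, and the spread within each group was small. The mean was 816 ± 31.1 CPM (SD, n = 3 mice) in WT and 267 ± 28.9 CPM (SD, n = 3 mice) in Hom, which is 32.8% of the WT level. The log2 fold change was −1.61 (SE 0.12, edgeR adjusted p = 3.83e-04), and without Hom replicate 1 it was −1.54 (adjusted p = 0.00117). Markers of hepatocytes, the cells that make Igfbp2, were lower for 6 of 11 genes and higher for none (median log2 fold change −0.67). With library size alone 4 were lower and 1 higher, and with limma on log2(TPM + 1) 2 were lower and 1 higher (median −0.044). Without Hom replicate 3, 3 were lower, and without Hom replicate 1, 8 were. The summed level of these markers was 157600 to 192300 CPM in WT and 89570 to 122800 CPM in Hom livers. Trf, transferrin, went the other way, at 15359 to 21041 CPM in WT and 24936 to 35018 CPM in Hom livers without overlap (edgeR adjusted p = 0.0616). The part of these markers in the Igfbp2 result was not tested.

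Igfbp3, the carrier of the ternary complex, was at 43.7, 30.0 and 20.6 CPM in WT replicates 1, 2 and 3 and at 14.9, 15.6 and 11.2 CPM in Hom replicates 1, 2 and 3. The Hom livers lay close together under the WT livers, which were spread 2.12-fold. The log2 fold change was −1.18 (SE 0.27, edgeR adjusted p = 0.0141), −1.23 without Hom replicate 1 (adjusted p = 0.0322) and −0.87 without WT replicate 1 (adjusted p = 0.0215). In WT replicate 1 macrophage markers were also high: all 8 listed macrophage markers were highest there within WT, with a summed level of 487 CPM against 220 and 187 CPM in WT replicates 2 and 3 and 174 to 265 CPM in Hom livers. Endothelial markers were lower in Hom livers for 5 of 9 genes and higher for none (summed 234 to 321 CPM in WT, 174 to 175 CPM in Hom livers), but 3 were lower and 2 higher with library size alone and with limma on TPM. Stellate and myofibroblast markers went the other way, higher in Hom livers for 7 of 12 genes and lower for 1. The part of these lists in the Igfbp3 result was not tested. The call was lost without Hom replicate 3 (log2 fold change −1.04, adjusted p = 0.0537) and with library size alone (−0.74, adjusted p = 0.0732), and in limma on log2(TPM + 1) it was −0.48 (adjusted p = 0.206).

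Igfbp7, a secreted protein of vessel walls and activated stroma, was at 95.2, 75.4 and 65.7 CPM in WT replicates 1, 2 and 3 and at 177, 209 and 221 CPM in Hom replicates 1, 2 and 3. All Hom livers were above all WT livers. The mean was 78.7 ± 15.0 CPM (SD, n = 3 mice) in WT and 202 ± 22.8 CPM (SD, n = 3 mice) in Hom livers, a 2.57-fold difference (log2 fold change 1.36, SE 0.16, edgeR adjusted p = 0.00124). It was 1.45 without Hom replicate 1 (adjusted p = 0.00225). Stellate and myofibroblast markers were higher in Hom livers for 7 of 12 genes and lower for 1, Reln, with a summed level of 375 to 436 CPM in WT and 771 to 872 CPM in Hom livers. Cholangiocyte markers were higher for 7 of 8 genes (summed 48.9 to 77.3 CPM in WT, 589 to 829 CPM in Hom livers), and no listed marker of any cell type was at 0 in any liver. Endothelial markers, from another cell type known for Igfbp7, were lower for 5 of 9 genes and higher for none, or 3 lower and 2 higher with library size alone. The part of these cells in the Igfbp7 result was not tested.

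Igfbp4, which binds IGFs until the protease PAPP-A cleaves it, was the most abundant of the 7 in Hom livers. It was at 1287, 1489 and 1297 CPM in WT replicates 1, 2 and 3 and at 1587, 1109 and 1160 CPM in Hom replicates 1, 2 and 3. Hom replicate 1 was the highest liver and the other Hom livers were the lowest, so the groups overlapped. The log2 fold change was −0.079 (SE 0.18, edgeR adjusted p = 0.749), and without Hom replicate 1 it was −0.26 (adjusted p = 0.168). The sign rested on the scaling, since it was 0.37 (adjusted p = 0.0724) with library size alone, a setting that raised the median of all genes to 0.45, and relative to that median it was −0.085.

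Igfbp1, the insulin-repressed binding protein whose promoter is shown above, was at 296, 175 and 174 CPM in WT replicates 1, 2 and 3 and at 51.9, 76.9 and 236 CPM in Hom replicates 1, 2 and 3. Hom replicates 1 and 2 lay under every WT liver, while Hom replicate 3 lay among the WT livers. The highest Hom liver was 4.54 times the lowest, against 1.70 times in WT. The log2 fold change was −0.82 (SE 0.55, edgeR adjusted p = 0.265), −0.46 without Hom replicate 1 (adjusted p = 0.490) and −1.74 without Hom replicate 3 (adjusted p = 0.0146). Without WT replicate 1, the highest WT liver, it was −0.53 (adjusted p = 0.517). In a list of 8 other genes that insulin represses or that act in FoxO1 control, 5 were lower in Hom livers and none higher (median log2 fold change −0.87), against 2 lower with library size alone (median −0.42) and 2 with limma on TPM (median −0.24). Without WT replicate 1 or WT replicate 2, 3 of the list were lower, and with DESeq2 6 were. Irs2, an insulin receptor substrate, was highest among Hom livers in replicate 3 and did not pass the test (edgeR adjusted p = 0.108), at 35.2 CPM against 13.8 and 17.6 CPM in Hom replicates 1 and 2 (WT 31.9 to 56.3 CPM). G6pc, the last enzyme of glucose output, was at 246 CPM in Hom replicate 3 and at 208 and 145 CPM in Hom replicates 1 and 2, all under the WT range of 555 to 695 CPM. Pck1, Ppargc1a, Klf15 and Foxo1, the other genes of the list that were lower, had their highest Hom level in replicate 1, unlike Igfbp1. Of 14 alternative fits, the call was lost in 6 for Pck1, in 7 for Ppargc1a and in 2 for Foxo1, while Klf15 and G6pc kept it. Pck1, the rate-limiting enzyme of gluconeogenesis, was at 2298, 1028 and 1917 CPM in Hom replicates 1, 2 and 3.

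Igfbp5 and Igfbp6 were high in Hom replicate 1 and low in the other Hom livers. Igfbp5, which binds to extracellular matrix, was at 20.0, 20.7 and 15.0 CPM in WT replicates 1, 2 and 3, at 28.6 CPM in Hom replicate 1 and at 3.75 and 4.83 CPM in Hom replicates 2 and 3. Igfbp6, which prefers IGF-2, was at 2.51, 2.89 and 2.89 CPM in WT replicates 1, 2 and 3, at 9.99 CPM in Hom replicate 1 and at 0.866 and 1.16 CPM in Hom replicates 2 and 3, the latter from 21 and 27 counts. In both genes the WT livers lay close together, and the Hom livers fell on either side of them. Hom replicate 1 was 6.67 times the mean of the other Hom livers for Igfbp5 and 9.84 times for Igfbp6. Of 12865 tested genes with a mean of at least 1 CPM, 58 (0.451%) had a ratio of 5 or more.

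Over all 6 livers neither gene passed the test (Igfbp5 log2 fold change −0.59, SE 0.72, edgeR adjusted p = 0.542, and Igfbp6 0.53, SE 0.88, edgeR adjusted p = 0.656,). Without Hom replicate 1 both were lower in Hom livers, Igfbp5 with a log2 fold change of −2.11 (edgeR adjusted p = 0.00186) and Igfbp6 with −1.44 (adjusted p = 0.0122), and the sign of Igfbp6 turned. Without that liver, 4 of the 7 genes were lower and 1 higher, against 2546 lower and 2708 higher of all 14077 genes tested. Some mesothelial genes, expressed by the lining of the liver surface, were also highest in Hom replicate 1. Msln had 181 counts in Hom replicate 1, 5 and 9 in Hom replicates 2 and 3 and 21 to 49 in WT livers, and Upk3b had 200 counts in Hom replicate 1, 3 and 20 in Hom replicates 2 and 3 and 30 to 70 in WT livers. A list of 7 mesothelial genes that includes both was put together after these values were seen, so its order among the livers is a description. Its summed level was 41.7 CPM in Hom replicate 1, 5.52 and 8.10 CPM in the other Hom livers and 5.47 to 11.7 CPM in WT livers. Gpm6a, a mesothelial gene of the earlier list, had 111, 104 and 105 counts in Hom replicates 1, 2 and 3 and did not set replicate 1 apart. Of the 6 genes of the later list that could be tested, Wt1 alone passed, with 231, 78 and 95 counts in Hom replicates 1, 2 and 3 and 4 to 9 in WT livers. Without Hom replicate 1, 3 of these 6 genes were lower and 1 higher. The median log2 fold change of the list was then −1.37, against 1.01 over all livers. The summed stellate and myofibroblast level was 771 CPM in Hom replicate 1 and 803 and 872 CPM in the others. The portal fibroblast and mesothelial list that also holds Msln and Upk3b had 5 of 7 genes higher in Hom livers, and those 2 were the ones that did not pass. Without WT replicate 2, 2 genes of this list were higher, and without Hom replicate 1, 4 were higher and 2 lower. The part of mesothelial RNA in the Igfbp5 and Igfbp6 values was not tested.

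**Figure D2:**
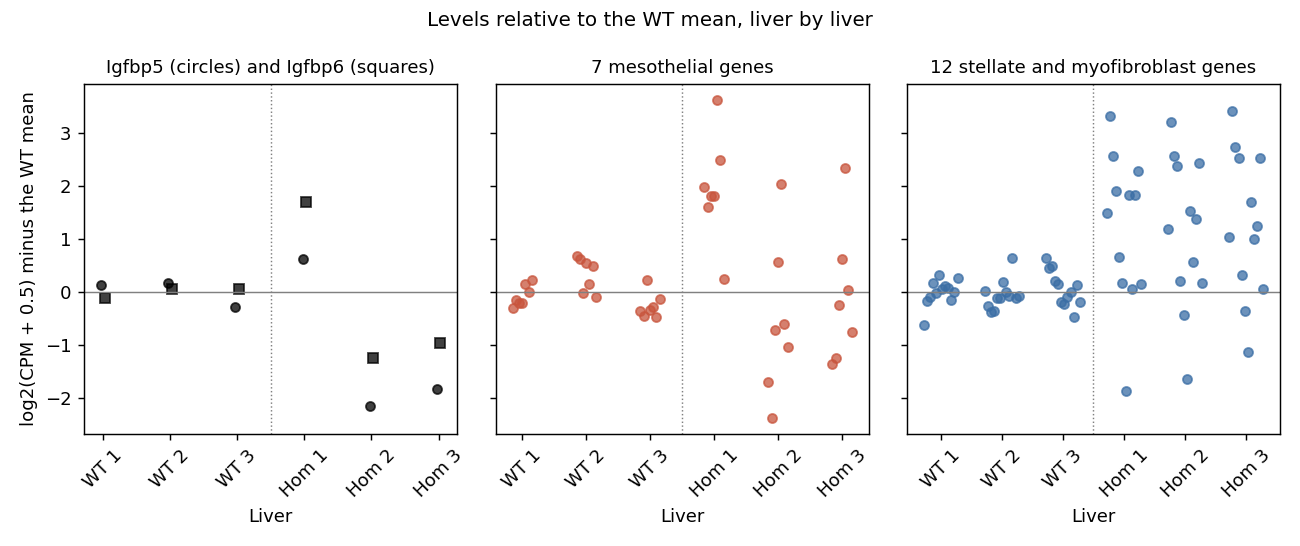
Levels in each liver as log2(CPM + 0.5) minus the WT mean, for Igfbp5 (circles) and Igfbp6 (squares), for 7 mesothelial genes and for 12 stellate and myofibroblast markers, 1 point per gene and liver. Igfbp5 and Igfbp6 stood above the WT mean only in Hom replicate 1 among Hom livers, at 0.62 and 1.69, and each of the 7 mesothelial genes, listed after the values were seen, was highest in that liver, while 4 of the 12 stellate and myofibroblast genes were.

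Between genes, per length, the order in WT livers was Igfbp2 and Igfbp4, then Igfbp1, Igfbp7, Igfbp3, Igfbp5 and Igfbp6. Igfbp2 had a mean of 1031 ± 147 TPM and Igfbp4 of 954 ± 86.2 TPM (SD, n = 3 mice), and these neighbours overlapped, since Igfbp4 was ahead in WT replicate 2. In all 3 Hom livers Igfbp4 came first, with 1379 ± 176 TPM, followed by Igfbp2 with 522 ± 91.1 TPM, Igfbp7 with 420 ± 72.7 TPM and Igfbp1 with 186 ± 155 TPM (SD, n = 3 mice). Igfbp7 was thus above Igfbp1 in each Hom liver and below it in each WT liver. Igfbp3, Igfbp5 and Igfbp6 stayed at 29.7 TPM or less in every liver, and the order of Igfbp5 and Igfbp6 was reversed in all Hom livers (Igfbp5 over Igfbp6 0.612 to 0.927 in Hom and 1.11 to 1.70 in WT livers).

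A share within a liver does not depend on how libraries are scaled. Igfbp2 made up 44.2% ± 2.53 (SD, n = 3) of the 7 genes' summed TPM in WT livers and 20.6% ± 2.89 (SD, n = 3) in Hom livers. Igfbp7 went from 4.53% ± 0.698 to 16.6% ± 2.68 and Igfbp4 from 41.1% ± 3.80 to 54.8% ± 8.91 (SD, n = 3). For each of these 3 genes the groups did not overlap (p = 0.1 for each in a two-sided exact permutation, the lowest value possible with 3 livers a group, and not adjusted over the 7 genes). Without Hom replicate 1, the Hom minus WT differences in share were −22.0 percentage points for Igfbp2, 13.5 for Igfbp7 and 8.76 for Igfbp4. Shares add up to a fixed total, so a smaller Igfbp2 share makes others larger. The level of Igfbp4 itself overlapped between the groups in CPM (log2 fold change −0.079, edgeR adjusted p = 0.749). The share of Igfbp1 was 8.99% ± 2.62 (SD, n = 3) in WT and 7.11% ± 5.47 (SD, n = 3) in Hom livers, and the groups overlapped (exact permutation test, p = 0.6), with a difference of −1.88 percentage points that turned to 0.20 without Hom replicate 1. The summed TPM of the 7 genes was 2113 to 2733 in WT and 2411 to 2730 in Hom livers, also overlapping (exact permutation test, p = 0.5), on a scale where the median of all genes was 0.50 higher in Hom livers in limma. In TMM-scaled CPM the sum was 2405 to 2583 in WT livers, 2110 in Hom replicate 1 and 1678 and 1933 in the other Hom livers, hence lower in every Hom liver (exact permutation test, p = 0.1, the smallest possible). Whether the family's total was lower thus depended on the scaling.

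**Figure D3:**
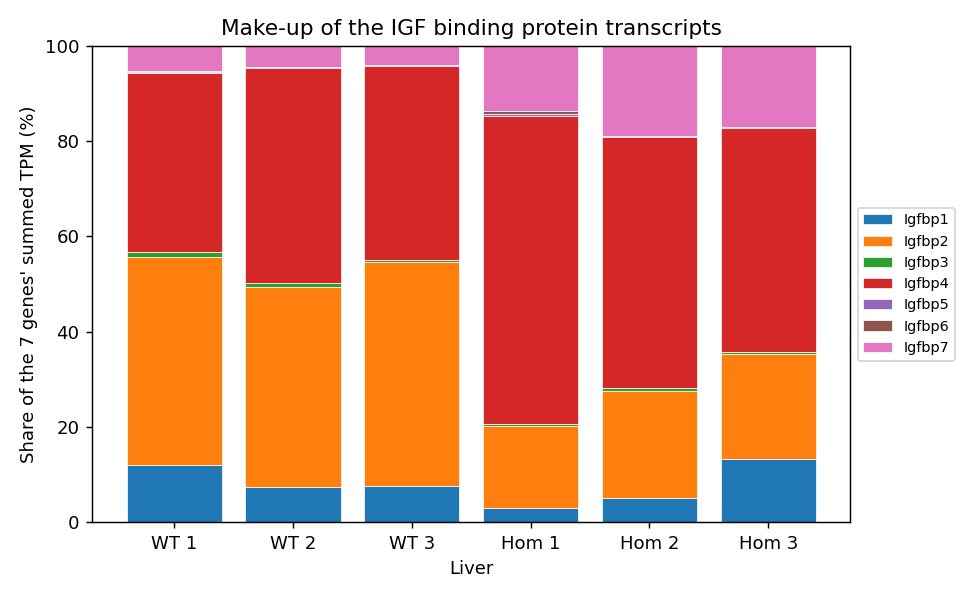
Share of the 7 genes' summed TPM taken by each gene (percent, stacked from 0 to 100) in each liver. The Igfbp2 portion is smaller and the Igfbp4 and Igfbp7 portions are larger in all 3 Hom livers than in any WT liver.

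The ligands and the carrier subunit were read from the same fit. Igf1, the main ligand, was at 444, 539 and 465 CPM in WT replicates 1, 2 and 3 and at 330, 299 and 269 CPM in Hom replicates 1, 2 and 3 (log2 fold change −0.69, SE 0.13, edgeR adjusted p = 0.00637). Igfals, the acid-labile subunit, was at 99.1, 129 and 123 CPM in WT and at 38.5, 47.2 and 40.6 CPM in Hom livers (−1.47, SE 0.13, edgeR adjusted p = 5.15e-04). Both were lower in every Hom liver, though Igf1 did not pass with library size alone (−0.23, adjusted p = 0.122), and in TPM it was 90.2 to 104 in WT and 87.2 to 100.4 in Hom livers. Igf2, largely silent in adult mouse liver, had 12 to 19 counts in WT and 42 to 50 counts in Hom livers (1.14, SE 0.28, edgeR adjusted p = 0.0179). The Igf2 call was lost with the replicate block (adjusted p = 0.0569) and without WT replicate 2 (0.0667), Hom replicate 2 (0.0745) or Hom replicate 3 (0.0597). Within a liver, Igfals was 0.743 to 0.880 of Igf1 in TPM in WT and 0.389 to 0.525 in Hom livers, without overlap (exact permutation test, p = 0.1). The ratio of Igfbp3 to Igf1 was 0.129 to 0.287 in WT and 0.121 to 0.152 in Hom livers, and the groups overlapped (exact permutation test, p = 0.3). The summed TPM of the 7 binding proteins was 20.9 to 26.4 times that of Igf1 in WT and 24.0 to 31.3 times in Hom livers (exact permutation test, p = 0.4).

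Among 3 receptors, Igf1r, which carries the IGF-1 signal and is little expressed in hepatocytes, was higher in Hom livers, at 7.84, 10.3 and 10.5 CPM in Hom replicates 1, 2 and 3 against 3.38 to 5.26 CPM in WT livers (log2 fold change 1.06, SE 0.22, edgeR adjusted p = 0.00880). Igf2r, which clears IGF-2, was at −0.0046 (SE 0.10, edgeR adjusted p = 0.975) and the insulin receptor gene Insr at −0.25 (SE 0.094, edgeR adjusted p = 0.0711). Of 6 genes for binding protein proteases and their inhibitors, 3 were tested and 1 passed: Stc2, stanniocalcin-2, an inhibitor of PAPP-A, had 4 to 9 counts in WT and 23 to 36 in Hom livers (1.78, SE 0.39, edgeR adjusted p = 0.0113), a call lost without Hom replicate 2 (adjusted p = 0.0546). Pappa, the protease itself, had at most 8 counts in a liver, too few for the test. Of 6 genes of growth hormone input, which drives Igf1 and Igfals, Ghr (−1.42, adjusted p = 6.64e-04) and Stat5b (−0.89, adjusted p = 0.00202) were lower and Jak2 (0.36, adjusted p = 0.0388) was higher in edgeR. Stat5a (0.088, edgeR adjusted p = 0.641), Socs2 (0.85, adjusted p = 0.164) and Cish (−0.36, adjusted p = 0.718) did not pass. Jak2 lost its call in 8 of 14 alternative fits (highest adjusted p = 0.136), and Stat5b in 1, limma on TPM (0.163). With library size alone, 2 of these 6 genes were lower and 3 higher. Of 11 genes of IGF and insulin signal transduction, 5 were lower and 1, Grb10 (1.26, adjusted p = 0.00125), was higher. Grb10 encodes an adaptor that dampens insulin and IGF-1 receptors, and the 5 lower genes were Irs1, Grb14, Pik3ca, Akt2 and Foxo1. Pik3ca lost its call in 11 of 14 alternative fits and Akt2 in 8. Of the 11, 0 were lower and 2 higher when only library size was used for scaling.

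Relatives that share the N-terminal IGFBP domain were also measured. Of 13 listed, 11 were tested, 6 were higher and 1 was lower in Hom livers (median log2 fold change 0.58). The matricellular gene Ccn5 had 1 to 9 counts in WT and 130, 501 and 222 counts in Hom replicates 1, 2 and 3 (5.50, SE 0.72, edgeR adjusted p = 0.00181). The serine protease genes Htra3 (2.55, SE 0.40, edgeR adjusted p = 0.00335) and Htra1 (1.89, SE 0.21, edgeR adjusted p = 0.00112) also rose. Esm1, an endothelial proteoglycan gene, rose by 1.51 on the log2 scale, a call lost without Hom replicate 2 (adjusted p = 0.0626) or Hom replicate 3 (0.0546), Ccn1 rose by 1.10 and Crim1 by 0.58. Ccn6 was the lower one, with 20 to 53 counts in WT and 5 to 11 in Hom livers (−2.53, SE 0.52, edgeR adjusted p = 0.00929). Ccn2, a known fibrosis gene, was at 0.22 (SE 0.17, edgeR adjusted p = 0.347). The summed stellate and myofibroblast level given above was also higher in Hom livers. Among Hom livers it was lowest in replicate 1 (771 CPM), where Htra3 was highest (30.3 CPM) and Ccn5 lowest (6.07 CPM). The part of these markers was not tested.

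**Figure D4:**
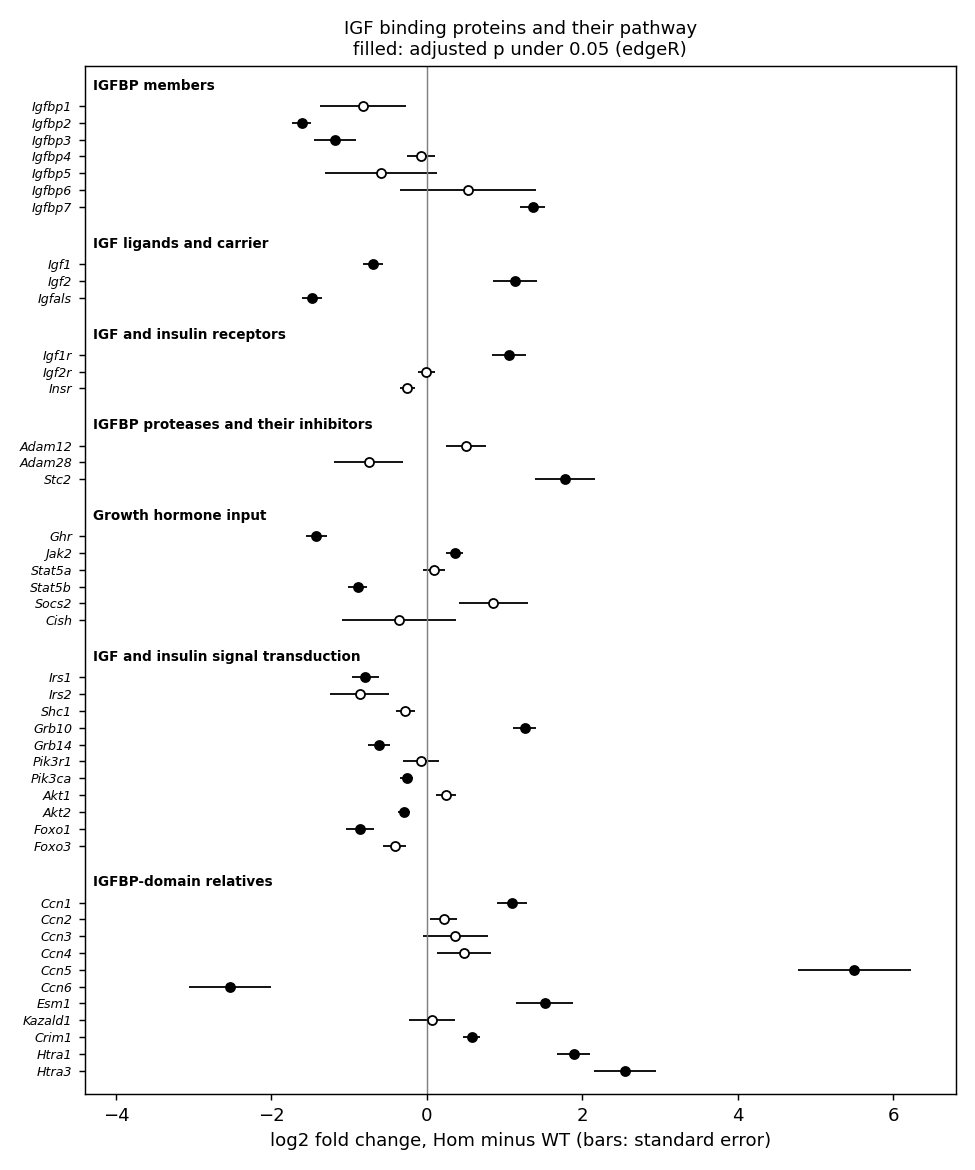
Log2 fold change (Hom minus WT, bars show the standard error) of the 7 binding proteins and of the tested genes of 6 related lists, from edgeR's fit over 13805 genes. Filled points passed an adjusted p of 0.05, and Ccn5 at 5.50 lies farthest from 0.

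The genes with the closest profile to each binding protein were found by the root mean square difference of log2(CPM + 0.5), centred on the WT mean, over 6 livers. For Igfbp2 these were Apoa2, an apolipoprotein gene of hepatocytes (0.051), and Adra1a, an adrenergic receptor gene (0.073). For Igfbp4 they were Pzp (0.037) and Nags (0.038), for Igfbp7 Fhl3 (0.041) and Ptpre (0.043), and for Igfbp3 Abcg8 (0.17) and Mpp4 (0.18). Igfbp1 (Ip6k2 0.38, Mrnip 0.42), Igfbp5 (Enho 0.37, Hal 0.41) and Igfbp6 (Pkhd1l1 0.28, Nrg4 0.29) had no gene as close. Among the binding proteins themselves, Igfbp2 and Igfbp3 were the closest pair (0.53), followed by Igfbp5 and Igfbp6 (0.69), and Igfbp2 and Igfbp7 were the farthest apart (2.11).

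**Figure D5:**
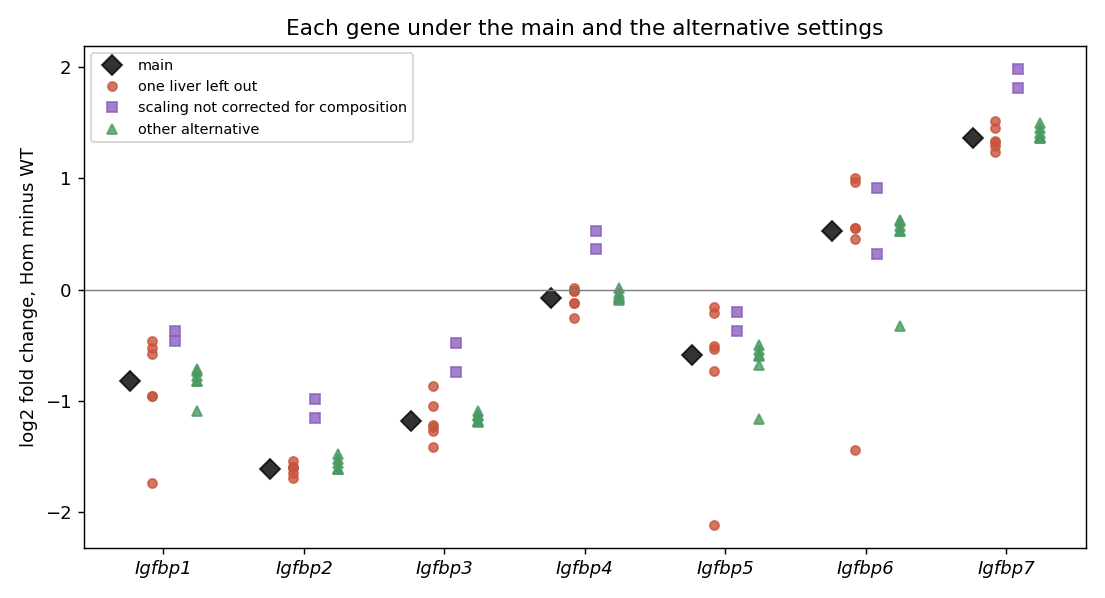
Log2 fold change (Hom minus WT) of each gene in the main setting (diamonds), with 1 liver left out (red circles), with scaling not corrected for composition (purple squares) and with other alternatives (green triangles). Igfbp2 and Igfbp3 stayed below 0 and Igfbp7 above 0 in every setting, while Igfbp4 and Igfbp6 have points on both sides of 0.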

How the data were processed

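RNA from whole liver of 3 WT and 3 Hom mice was sequenced on DNBSEQ by BGI Genomics. The authors deposited expected counts (estimated reads per gene, 65.9% whole numbers), FPKM and TPM for each liver. The submitters' processing notes name HISAT2 2.0.4, Bowtie2 2.2.5, RSEM 1.2.12 and mm9, without roles. Strandedness was not given in the sources used here. The deposited mean count named for WT equals the mean of the Hom livers in all 17975 genes, so the group means were not used. Same-group libraries differed beyond sampling noise (a ratio of chi-square to its degrees of freedom of 23.8 or more). This ratio was 143 and 163 for WT replicate 1 against WT replicates 2 and 3. For Hom replicate 1 against Hom replicates 2 and 3 it was 85.3 and 79.9.

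Expected counts were rounded and fitted in edgeR 4.0.16 (R 4.3.3): filterByExpr, TMM factors, quasi-likelihood test, Benjamini-Hochberg adjustment over 13805 genes, and an adjusted p under 0.05 with no minimum fold change, as the study states. Each SE is the size of the fold change over the root of its F value. The authors' TPM gave the shares and ratios, the deposited FPKM gave gene lengths and another share, and TPM entered 1 alternative with limma 3.58.1 on log2(TPM + 1). In simulated data, 46.0% of 200 genes changed by 1 on the log2 scale were recovered among 13191 tested, and 0.0308% of unchanged genes were called. These counts were drawn from the WT means with the same dispersion of 0.05 for every gene. They held no shift in composition and no liver that stood apart, so the rates may not hold for the real livers. The 7 genes, the lists and the motifs were chosen with earlier results of these data known. Named genes were those of the lists, the nearest protein-coding neighbours and the 2 closest profiles per member (mean of at least 1 CPM, no predicted-gene names). Lists not described in the text for their own sake were lymphocyte markers (2 of 7 tested higher, none lower). Alternatives were DESeq2 1.42.0, library size alone, upper-quartile factors, 2 count filters, the replicate number as a block, a minimum fold of 1 on the log2 scale, a loess correction for gene length, limma on TPM, and each liver left out.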

Additional observations from a re-analysis of the deposited data

How the results depend on the processing

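The fold changes of Igfbp2 and Igfbp7 kept their direction and their call in every setting tried. Of 311 comparisons of 21 named genes with an alternative, 283 kept direction and call, 13 were weaker, 2 stronger and 13 reversed. With library size alone, 1 member was lower, 642 genes were lower and 6574 higher, and Igfbp4 (0.37) and Igf2r (0.45) turned positive, where the median of all genes was 0.45. With limma on log2(TPM + 1), whose median of all genes was 0.50, 1 member was lower and 2 were higher (Igfbp4 at 0.53 and Igfbp7), 433 genes were lower and 8368 higher, and Igf2r was at 0.56. With upper-quartile factors Igfbp4 was at 0.012 and Igf2r at 0.086, and with at least 10 counts in every liver Igf2r was at 0.042. Where calls also had to reach 1 on the log2 scale, 575 genes were lower and 1825 higher, and the 3 members called were kept. Leaving out each liver in turn, 2 to 4 members were lower, 1767 to 2750 genes were lower and 1986 to 3057 higher, and log2 fold changes ran from −0.26 to 0.016 for Igfbp4, from −1.44 to 1.00 for Igfbp6 (negative without Hom replicate 1) and from −0.080 to 0.066 for Igf2r. The number of lower genes was 1829 without Hom replicate 2 and 1767 without Hom replicate 3. The cause was not tested in these cases.

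Shares by summed CPM, which is not per length, gave Hom minus WT differences of −18.3 percentage points for Igfbp2 and 7.64 for Igfbp7. Without Igfbp4 in the sum, by construction with a smaller total, they were −29.3 for Igfbp2, 29.4 for Igfbp7 and 0.49 for Igfbp6. WT and Hom livers share replicate numbers but are different mice, and same-numbered livers did not deviate together (correlations of deviations from the group means −0.109, −0.0563 and −0.0494). With the replicate block, 2 members were lower and 1 higher, 2214 genes were lower and 2383 higher, and Igfbp6 was at −0.33. Few counts limit Igfbp6, Stc2, Ccn5 and Ccn6, and 3 mice against 3 cannot give an exact p under 0.1.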

Other observations

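The genes beside the binding proteins in GENCODE M21 were also read. Top2a, a gene of dividing cells that lies 17054 bp from Igfbp4, was higher in Hom livers (log2 fold change 1.99, SE 0.62, edgeR adjusted p = 0.0381). Tns4, 11285 bp away on its other side, was at −1.02 (SE 0.79, adjusted p = 0.330). Soat2, which esterifies cholesterol and lies 1014 bp from Igfbp6, was at −0.55 (SE 0.19, adjusted p = 0.0515), and Spryd3 on the other side of Igfbp6 was at 0.22 (SE 0.093, adjusted p = 0.101). Beside Igfbp7, Noa1 at 39155 bp was lower (−0.48, SE 0.13, adjusted p = 0.0212) and Adgrl3 at 3612096 bp was higher (0.96, SE 0.30, adjusted p = 0.0386). Rpl37a, a ribosomal protein gene 110689 bp from Igfbp2, was lower (−0.45, SE 0.10, adjusted p = 0.0131). The next coding gene beyond Igfbp3, Tns3, lies 1217728 bp away and was higher (1.02, SE 0.082, adjusted p = 4.25e-04). Of 14 alternative fits, the call was lost in 9 for Adgrl3, in 6 for Noa1 and in 4 for Rpl37a, and of 13 in 4 for Top2a, while Tns3 kept its call in all 14.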
